A study of Mus musculus with 34 samples.

Results

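The postsynaptic density scaffolds are the proteins that hold glutamate receptors and their signalling partners in place under the membrane of excitatory synapses. The set examined here was chosen by name, with earlier results of these data known, as Dlg2, Dlg3, Dlg4, Shank1, Shank2, Shank3, Dlgap1, Dlgap2 and Dlgap3. Its members were all array probe sets that the platform annotation assigns to 1 of these symbols alone. This gave 17 of 45037 probe sets, which covered 8 of the 9 genes. No probe set carried the Shank2 symbol, so Shank2 was not analysed here. The tissue was cortex taken at 15 weeks of age, from offspring of R6/2 males and Hdac4HET females on a mixed CBA and C57BL/6 background. R6/2 mice carry a transgene for a mutant HTT exon 1 fragment, a model of Huntington's disease, and Hdac4HET mice are heterozygous for a whole-body Hdac4 knock-out allele. The 34 arrays, 1 per mouse, came from Dble::R6/2 mice, which carried both the transgene and the knock-out allele (n = 9), R6/2 mice with the transgene alone (n = 9), Hdac4HET mice with the knock-out allele alone (n = 8), and WT littermates with neither (n = 8). Because the allele lowers Hdac4 and does not remove it, the cross is a model of reduction only.

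Scaffolds of this kind are stacked in layers. Dlg proteins are membrane-associated guanylate kinases that bind the tails of NMDA receptors and of the auxiliary subunits of AMPA receptors; Dlg4 encodes PSD-95, the most studied of them. Dlgap proteins, also called SAPAP or GKAP, bind the guanylate kinase domain of the Dlg proteins from below, and Shank proteins bind the Dlgap proteins and connect them to Homer and to actin. In mice, loss of Dlgap3 or of Shank3 gives repetitive self-grooming and altered corticostriatal synapses.

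Each value below is a deposited log2 expression level, so that a difference of 1 between genotypes is a doubling of signal. Probe sets of one gene are numbered by brightness over all arrays, set 1 being the brightest. A probe set was called where the limma adjusted p over all 45037 probe sets was 0.05 or less. The p-values measure the spread between mice. All arrays were close in scale, with medians of 5.44 to 5.52 and within-genotype correlations no lower than 0.973. Cortical markers were present, among them Slc17a7, Neurod6 and Tbr1 at mean levels of 10.1, 9.22 and 8.81. Hdac4, read on its brightest probe set, was 7.58 ± 0.14 in Dble::R6/2 and 7.91 ± 0.19 in R6/2 mice (SD, n = 9 each), and 7.58 ± 0.10 in Hdac4HET against 8.06 ± 0.13 in WT mice (SD, n = 8 each), so Hdac4 averaged lower wherever the labels give the allele. Hdac4HET and WT arrays did not overlap, but Dble::R6/2 arrays (7.32 to 7.80) and R6/2 arrays (7.54 to 8.14) did. The library labelled R6/2 replicate 2 read 7.54, inside the Dble::R6/2 range and below the other 8 R6/2 arrays (7.77 to 8.14). R6/2 replicate 9, at 7.77, also lay inside that range, so this level cannot settle the genotype of a single array. R6/2 replicate 2 was also the only R6/2 array whose sex label went against Xist, and whether its label is right was not tested. The sex label of 15 of the 34 arrays went against the level of Xist. Most were in the other genotypes: 5 of 8 WT, 5 of 8 Hdac4HET and 4 of 9 Dble::R6/2 arrays. Prl, a pituitary hormone, was above 8 on 4 arrays (WT replicates 2, 6 and 7 and Hdac4HET replicate 1). The same library, called R6/2 replicate 2 below after its label, stood apart from the other R6/2 arrays, with 3.94% of all probe sets at least 1 log2 unit away from their mean, against 0.107% to 1.38% on the other 33 arrays. On it the mean of 7 epidermal markers was 7.04, against 5.19 to 5.44 in the other R6/2 mice. Where leaving out R6/2 replicate 2 or the 4 arrays high in Prl changed the call of a member, both values are given.

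Promoter windows of 3 members that fell in at least 1 transgene comparison are shown, as RefSeq records them on GRCm38.p6 from 250 bases before to 50 after an annotated start. Such windows were found for 6 of the 9 genes, 12 windows in all, and those printed were chosen because they held the most matches to the GC box or the only match to the MEF2 motif. MEF2 factors are known partners of Hdac4, and GC boxes are bound by Sp factors. The letters searched on both strands were GGGCGG (GC box), TGACG (the core of a cAMP response element), CACGTG (E-box) and the MEF2 motif. They occurred in 35.7%, 20.8%, 7.15% and 3.19% of 32851 windows of this length. Capitals mark the matches, and a match is a description of letters, not a bound site.
Shank3, chr15:89499358-89499657, plus strand: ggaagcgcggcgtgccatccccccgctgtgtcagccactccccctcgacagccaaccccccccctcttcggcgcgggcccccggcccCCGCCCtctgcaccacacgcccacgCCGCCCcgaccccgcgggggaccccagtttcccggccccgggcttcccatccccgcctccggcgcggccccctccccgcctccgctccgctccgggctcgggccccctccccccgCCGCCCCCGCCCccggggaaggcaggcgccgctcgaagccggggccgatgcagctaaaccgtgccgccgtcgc
Dlg4, chr11:70023732-70024031, plus strand: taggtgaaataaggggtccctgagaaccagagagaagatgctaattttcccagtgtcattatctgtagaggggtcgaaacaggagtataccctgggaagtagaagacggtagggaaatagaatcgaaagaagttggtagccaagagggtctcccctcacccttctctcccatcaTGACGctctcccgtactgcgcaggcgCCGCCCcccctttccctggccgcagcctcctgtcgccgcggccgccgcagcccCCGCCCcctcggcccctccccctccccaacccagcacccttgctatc
Dlg2, chr7:91090536-91090835, plus strand: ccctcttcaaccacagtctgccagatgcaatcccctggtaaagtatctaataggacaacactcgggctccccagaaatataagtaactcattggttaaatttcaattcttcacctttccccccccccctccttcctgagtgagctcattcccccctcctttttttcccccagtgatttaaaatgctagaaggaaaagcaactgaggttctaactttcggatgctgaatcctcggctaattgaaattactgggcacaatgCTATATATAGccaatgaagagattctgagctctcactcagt
The Shank3 window held 4 GC boxes, all read on the opposite strand, and was 81% G and C, against a median of 52.7% over all windows. The Dlg4 window, 1 of 3 for that gene, held 2 GC boxes and 1 TGACG, and the Dlg2 window, also 1 of 3, held 1 match to the MEF2 motif. The other Dlg4 and Dlg2 windows and the only Dlgap3 window held none of the 4, and of the 2 Dlgap1 windows 1 held an E-box. Dlg3, called in neither transgene comparison, had 2 windows, 1 with a GC box and 1 with a TGACG.

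To see what the transgene did to these scaffolds on a normal Hdac4 background, R6/2 cortex was compared with WT cortex. Transcripts of Dlgap1, Shank3 and Shank1 were called lower in R6/2 mice, and no member was called higher. Dlg2 was called lower on its dim sets 2 and 3 but not on its brightest probe set. Of the 17 probe sets, 9 were called lower and 0 higher, where 12% of all probe sets were called lower, 14.9% higher and 26.9% either way. By gene, on the brightest probe set, 3 of 8 were called lower (Shank1, Shank3 and Dlgap1), and 0 higher, against 11.8% lower and 20.2% higher of 18193 genes. In 15 of the 17 probe sets the R6/2 mean lay below the WT mean, with a median log2 change of -0.34, against 0.01 over all probe sets. In 4 members every R6/2 array lay below every WT array (Dlg2 set 2, Dlg4 set 2, and Dlgap1 sets 1 and 2), a separation seen in 3.03% of all probe sets. In whole cortex, fewer cells of a type and less RNA per cell cannot be told apart, and 6 of 7 pan-neuronal markers and 5 of 6 interneuron markers were also called lower in R6/2 mice, with 0 of either called higher. The mean of the pan-neuronal markers ranged from 11.5 to 11.8 in R6/2 and from 11.9 to 12.1 in WT mice, and the mean of the interneuron markers from 9.58 to 9.82 in R6/2 and from 10.4 to 10.5 in WT mice. Of the other marker lists, 5 of 7 astrocyte markers were called lower and 1 higher, 3 of 5 cortical excitatory markers lower and 1 higher, and 4 of 7 microglial, 2 of 6 oligodendrocyte, 2 of 8 striatal projection neuron and 3 of 6 pituitary markers lower and 0 higher. In the remaining lists 3 of 6 choroid plexus, 1 of 6 endothelial and 1 of 7 epidermal markers were called higher and 0 lower. The part of these cell types in the result was not tested.

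Among the Dlg genes, Dlg2, which encodes a close relative of PSD-95, was read by 3 probe sets that behaved differently. On set 2 (1421199_at) the level was lowest 4.54, median 4.997 and highest 5.24 in R6/2 mice, against 5.26, 5.61 and 6.46 in WT mice. All 9 R6/2 arrays lay below the lowest WT array, and the log2 change was -0.86 ± 0.15 (SE, limma adjusted p = 3.4e-04), which left 55.1% of the WT signal. Without the 4 arrays high in Prl the change of set 2 was -0.68 (adjusted p = 0.00418). On set 3 (1421200_at) it was 3.80, 4.34 and 4.63 in R6/2, against 4.22, 4.63 and 5.84 in WT mice. These groups overlapped, the change of -0.54 ± 0.19 only just passed (adjusted p = 0.0455), and it was -0.24 (adjusted p = 0.285) once the 4 arrays high in Prl were left out. On set 1 (1437927_at), the brightest, R6/2 arrays ran from 9.96 through a median of 10.63 to 10.75 and WT arrays from 10.28 through 10.72 to 10.80. That change was -0.11 ± 0.10 (adjusted p = 0.473), with a 95% interval of -0.31 to 0.09. Without R6/2 replicate 2, its lowest array, it was -0.03 ± 0.07. Sets 2 and 3 were both dimmer than the median probe set of the array. On both, Hdac4HET mice, which lack the transgene, averaged close to R6/2 mice. The means of set 2 were 4.92 in R6/2, 4.96 in Dble::R6/2 and 5.07 in Hdac4HET mice, against 5.78 in WT mice. For set 3 they were 4.24, 4.31 and 4.25, against 4.78 in WT mice. Dlg3, the X-linked member (1416918_at), ran from 9.69 through 9.81 to 10.09 in R6/2 and from 9.56 through 9.70 to 9.93 in WT mice. It did not pass (log2 change 0.12 ± 0.06, adjusted p = 0.177), and its highest array of all 34 was R6/2 replicate 2.

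Dlg4 showed how far 1 array could carry a value. On its set 2 (1419581_at) R6/2 replicate 2 read 4.23, whereas the other 8 R6/2 arrays lay between 9.46 and 9.84, against a WT range of 9.90 to 10.61 with a median of 10.38. No other probe set on that array lay 5 or more log2 units below its R6/2 companions. With all arrays the change was -1.39 ± 0.57 and was not called (adjusted p = 0.0781), although with the same arrays it was called at that size in the single fit of all 4 genotypes (adjusted p = 0.0137) and at -0.93 with array weights (adjusted p = 0.0134). Without R6/2 replicate 2 it was -0.80 ± 0.09 (adjusted p = 2.5e-06), with all 8 remaining R6/2 arrays below all 8 WT arrays. Set 1 (1419580_at) read 9.12 on that array and 10.51 to 10.91 on the other R6/2 arrays, against 10.48, 10.99 and 11.05 (lowest, median and highest) in WT mice. Its change was -0.34 ± 0.19 (adjusted p = 0.213) with the array and -0.16 ± 0.08 (adjusted p = 0.182) without it, so it was not called either way. Set 3 (1460261_at) ran from 5.40 to 6.06 in R6/2 and from 5.50 to 5.85 in WT mice, a change of 0.04 ± 0.08 (0.08 ± 0.08 without that array) that did not pass.

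**Figure D1:**
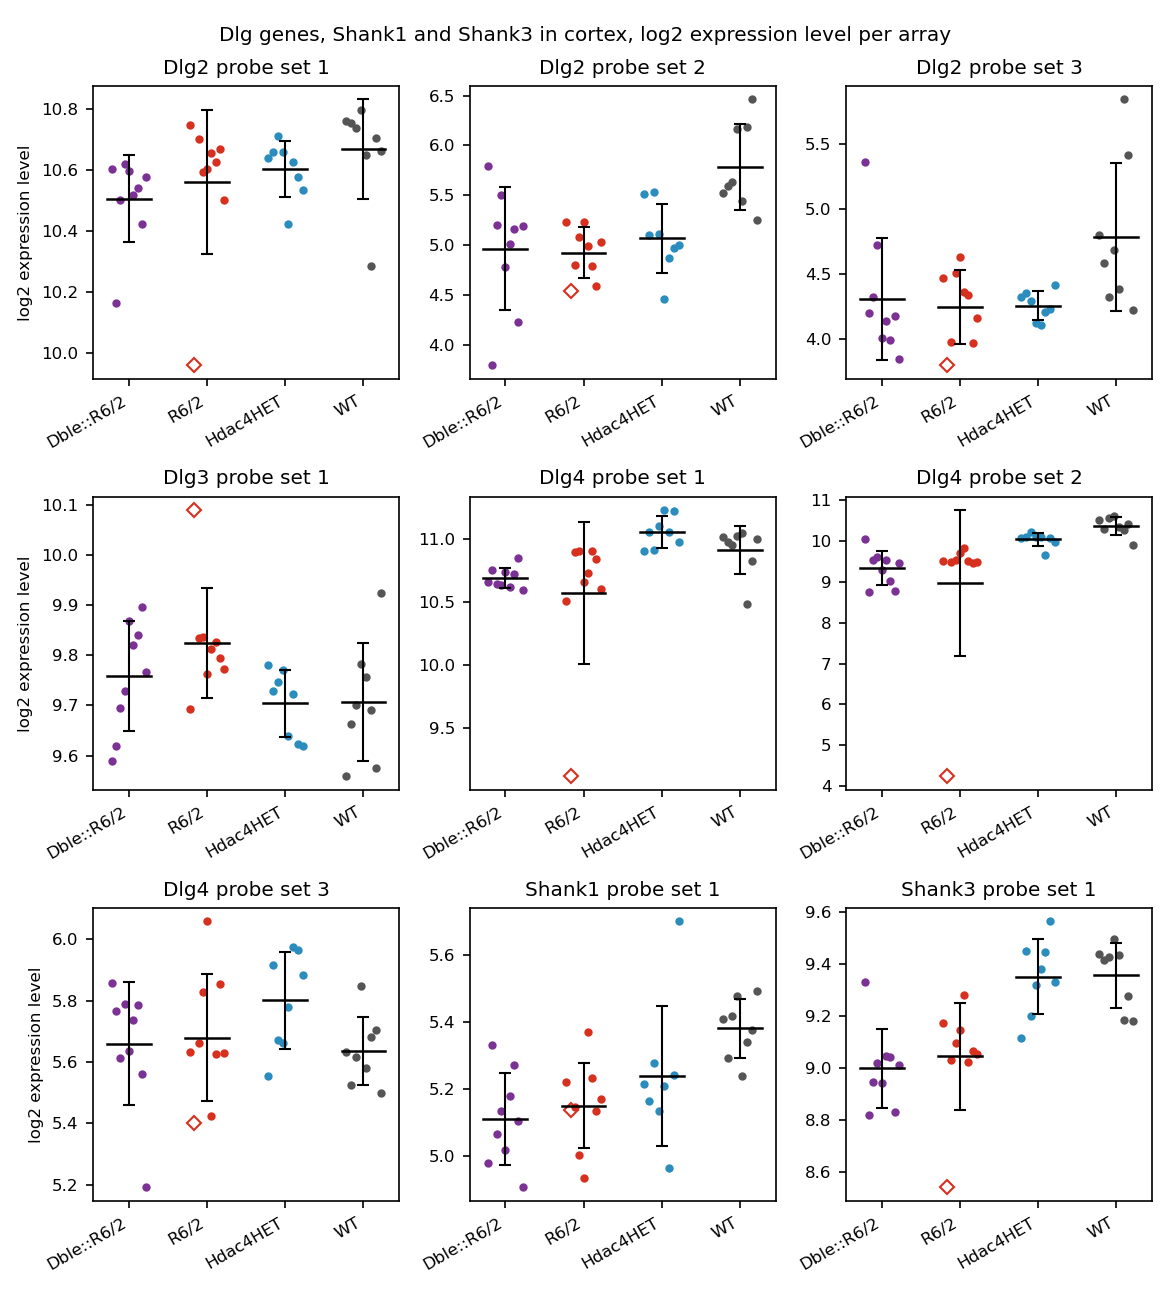
Log2 expression level (y axis) of each probe set of Dlg2, Dlg3, Dlg4, Shank1 and Shank3 on every array of Dble::R6/2, R6/2, Hdac4HET and WT mice. Points are arrays, black bars the mean ± SD, and the open diamond is R6/2 replicate 2, which read 4.23 on Dlg4 set 2, far below every other array there.

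Dlgap1, which encodes a SAPAP protein, was the member with the most probe sets called lower in R6/2 mice, 5 of its 6. Set 2 (1436076_at) had the lowest p of all members. It read 10.37, 10.54 and 10.68 (lowest, median and highest) in R6/2 mice, against 10.70, 10.96 and 11.05 in WT mice. The groups did not overlap, and the change was -0.39 ± 0.06 (SE, adjusted p = 4.3e-05), or 76.2% of the WT signal. Set 1 (1453027_at) read 9.37, 10.61 and 10.71 in R6/2 mice, against 10.93, 11.14 and 11.38 in WT mice. It also separated the genotypes completely, with a change of -0.65 ± 0.14 (adjusted p = 0.00217), or -0.51 without R6/2 replicate 2. Sets 3, 4 and 5 fell by 0.53, 0.34 and 0.51 on the log2 scale, with 7, 7 and 5 of the 9 R6/2 arrays below every WT array. The call of set 3 (adjusted p = 0.0272) was lost without the 4 arrays high in Prl (adjusted p = 0.112), with the methods' t-test (0.0523) and without R6/2 replicate 8 (0.0508). Set 6 (1438098_at) changed by -0.15 ± 0.08 and did not pass (adjusted p = 0.192). Dlgap3 (1436381_at), which in rodents is prominent in the striatum, read 8.01, 9.29 and 9.48 in R6/2 mice, against 9.22, 9.57 and 9.72 in WT mice. Its change of -0.36 ± 0.15 did not pass (adjusted p = 0.0922). The lowest value was again R6/2 replicate 2, and without that array the change was smaller, -0.22 ± 0.08, and was called (adjusted p = 0.0373). Dlgap2 (1439767_at) spread widely within each genotype, from 6.52 to 8.03 in R6/2 and from 6.70 to 8.04 in WT mice, and its change of -0.29 ± 0.24 did not pass (adjusted p = 0.434).

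The Shank genes fell modestly. Shank3 (1419137_at) read 8.54, 9.07 and 9.28 (lowest, median and highest) in R6/2 mice, against 9.18, 9.42 and 9.50 in WT mice. Of the 9 R6/2 arrays, 8 lay below every WT array, and the change was -0.31 ± 0.08 (SE, adjusted p = 0.00817), or 80.6% of the WT signal. Shank1 (1444240_at) read 4.94, 5.15 and 5.37 in R6/2 mice, against 5.24, 5.39 and 5.49 in WT mice. Here too 8 of 9 R6/2 arrays lay below every WT array, with a change of -0.23 ± 0.06 (adjusted p = 0.00684), on a probe set dimmer than the array's median. Leaving out R6/2 replicate 2, both remained called, at -0.25 for Shank3 and -0.23 for Shank1. Without that array 10 probe sets in all were called lower, against a background of 12.8%. Dlg2 set 3 then missed the threshold (adjusted p = 0.0757), and Dlg4 set 2 and Dlgap3 were added.

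**Figure D2:**
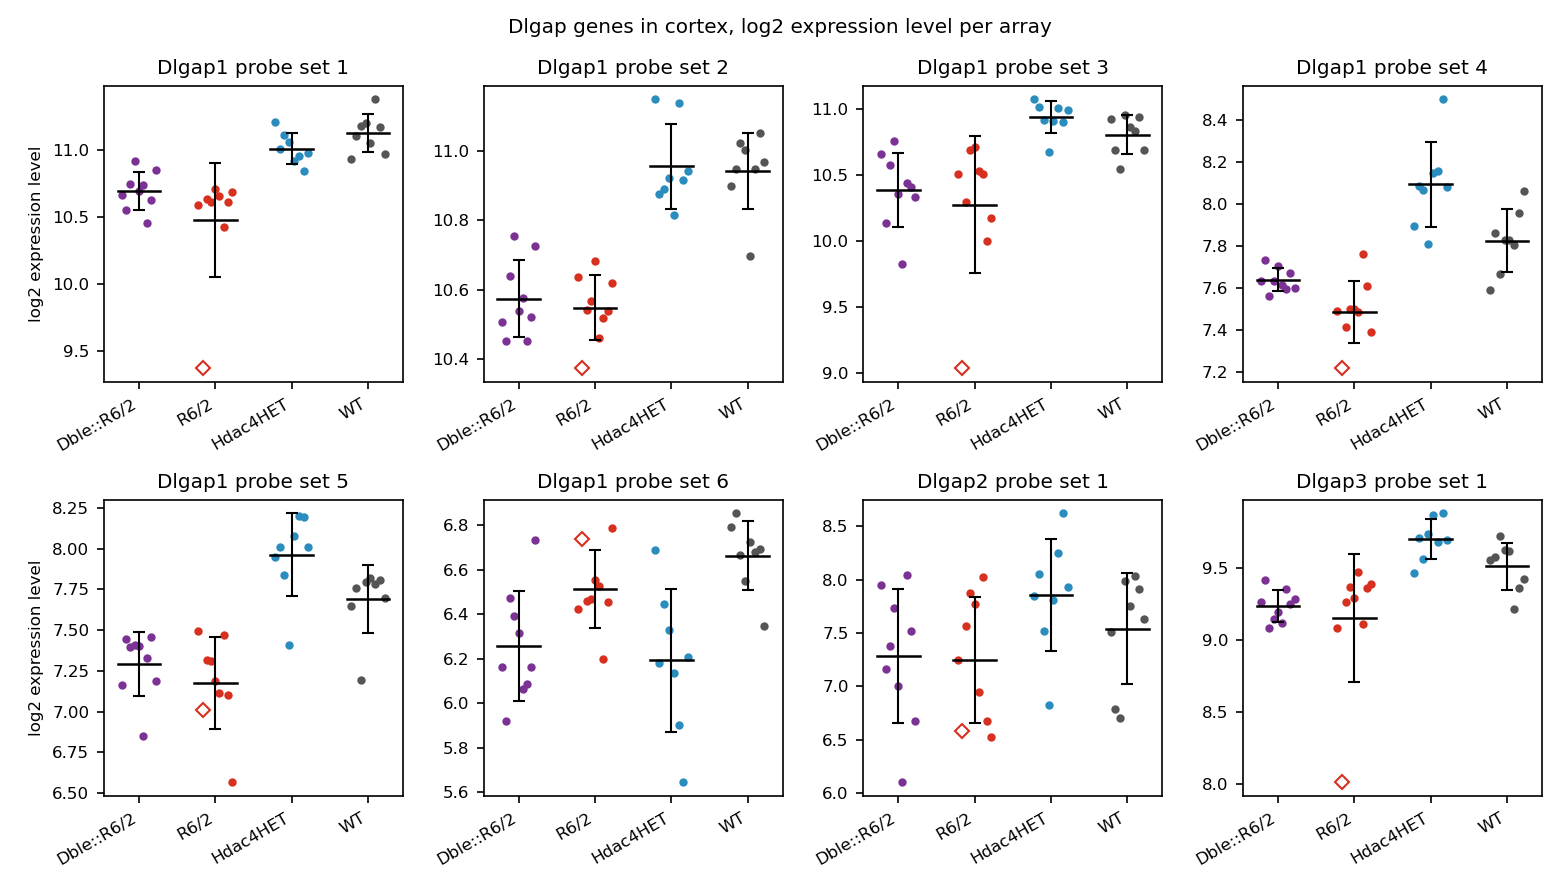
Log2 expression level (y axis) of each probe set of Dlgap1, Dlgap2 and Dlgap3 on every array of Dble::R6/2, R6/2, Hdac4HET and WT mice, with the mean ± SD in black and R6/2 replicate 2 as an open diamond. On Dlgap1 set 2 the R6/2 arrays reached 10.68 at most and the WT arrays began at 10.70.

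The same transgene was then compared on the reduced Hdac4 background, in Dble::R6/2 against Hdac4HET mice, none of whose arrays entered the first comparison. Dlgap1, Dlg4, Dlgap3 and Shank3 were lower in Dble::R6/2 mice. Again 9 of 17 probe sets were called lower and 0 higher, where 9.98% of all probe sets were called lower, 13.2% higher and 23.1% either way. By gene, 4 of 8 were called lower on the brightest probe set, and 0 higher, against 11.7% lower and 18.3% higher of all genes. The median log2 change of the 17 was -0.35, against 0.01 over all probe sets. In 4 probe sets every Dble::R6/2 array lay below every Hdac4HET array (Dlg4 set 1, Dlgap1 sets 2 and 4, and Dlgap3), a separation found in 3.01% of all probe sets. As in the first comparison 6 of 7 pan-neuronal markers were called lower, along with all 6 interneuron markers and 5 of 8 measured markers of striatal projection neurons, 5 of 7 of astrocytes, 6 of 7 of microglia, 2 of 6 of oligodendrocytes and 2 of 5 of cortical excitatory neurons. None of these was called higher, whereas 1 of 6 endothelial and 3 of 7 epidermal markers were called higher and 0 of either lower, and of 6 choroid plexus and 6 pituitary markers 0 were called. The mean of the pan-neuronal markers lay between 11.4 and 11.8 in Dble::R6/2 and between 11.8 and 12.1 in Hdac4HET mice, and the part of these cell types was not tested.

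Dlgap3 read 9.08, 9.25 and 9.42 (lowest, median and highest) in Dble::R6/2 mice, against 9.47, 9.70 and 9.88 in Hdac4HET mice. The groups were fully separate, and the change of -0.47 ± 0.07 (SE, adjusted p = 2.5e-05) left 72.4% of the Hdac4HET signal. Dlg4 set 1 read 10.60, 10.66 and 10.85 in Dble::R6/2 mice, against 10.91, 11.06 and 11.23 in Hdac4HET mice. Its change was -0.37 ± 0.06 (adjusted p = 9e-05), with no overlap. Dlg4 set 2 read 8.75, 9.46 and 10.05 in Dble::R6/2 mice, against 9.66, 10.09 and 10.22 in Hdac4HET mice. Of the 9 Dble::R6/2 arrays, 8 lay below every Hdac4HET array, and the change was -0.70 ± 0.15 (adjusted p = 0.00129). With all 4 genotypes in a single fit, whose spread includes R6/2 replicate 2, neither Dlg4 probe set passed (adjusted p = 0.0665 for set 1 and 0.286 for set 2). Set 3 changed by -0.14 ± 0.09 and did not pass.

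Shank3 read 8.82, 9.01 and 9.33 in Dble::R6/2 mice, against 9.12, 9.36 and 9.56 in Hdac4HET mice. The change of -0.35 ± 0.07 (adjusted p = 0.00131) left 78.3% of the Hdac4HET signal, with 8 of 9 arrays below every Hdac4HET array. Dlgap1 set 5 (1443508_at) had the widest called fall of that gene. It read 6.85, 7.40 and 7.46 in Dble::R6/2 mice, against 7.41, 8.01 and 8.20 in Hdac4HET mice, a change of -0.67 ± 0.10 (adjusted p = 7.4e-05). Sets 1, 2, 3 and 4 of Dlgap1 fell by 0.31, 0.38, 0.55 and 0.45, all called. Set 6 read 5.92, 6.16 and 6.73 in Dble::R6/2 mice, against 5.65, 6.20 and 6.69 in Hdac4HET mice, and its change of 0.06 ± 0.13 did not pass. Dlgap2 (-0.57 ± 0.25, adjusted p = 0.121), Shank1 (-0.13 ± 0.08, adjusted p = 0.325), Dlg3 (0.05 ± 0.05) and the 3 Dlg2 probe sets (-0.10, -0.11 and 0.05) did not pass.

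Both comparisons, which share no array, called 6 probe sets lower: Shank3 and Dlgap1 sets 1 to 5. Dlgap1 set 3 depended in R6/2 against WT mice on the settings named above. Apart from Shank3 these were probe sets of 1 gene. The share of all probe sets called lower in both was not counted. It was 12% in R6/2 against WT mice and 9.98% in Dble::R6/2 against Hdac4HET mice, each taken singly. Each comparison called 3 more members that the other did not. The sign was the same in 14 of the 17 probe sets. Dlg2 sets 2 and 3 and Shank1 were called in R6/2 against WT alone, and Dlg4 sets 1 and 2 and Dlgap3 in Dble::R6/2 against Hdac4HET alone. The difference between both comparisons was tested as the interaction of transgene and Hdac4 allele, and 0 of 17 probe sets passed, where 0.00222% of all probe sets did. At an unadjusted p under 0.05 there were 3 members. The share of all probe sets under that cut was not counted, so the 3 are named as a description only. Dlg2 set 2 came first, with an interaction of 0.75 ± 0.28 (SE, limma adjusted p = 0.358), followed by Dlg2 set 3 (0.59, adjusted p = 0.443) and Dlgap1 set 1 (0.33, adjusted p = 0.507). Without R6/2 replicate 2 these were 0.70, 0.53 and 0.19, and again 0 of 17 passed. A fall seen in one comparison and missed in the other was therefore not shown to differ between Hdac4 backgrounds.

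**Figure D3:**
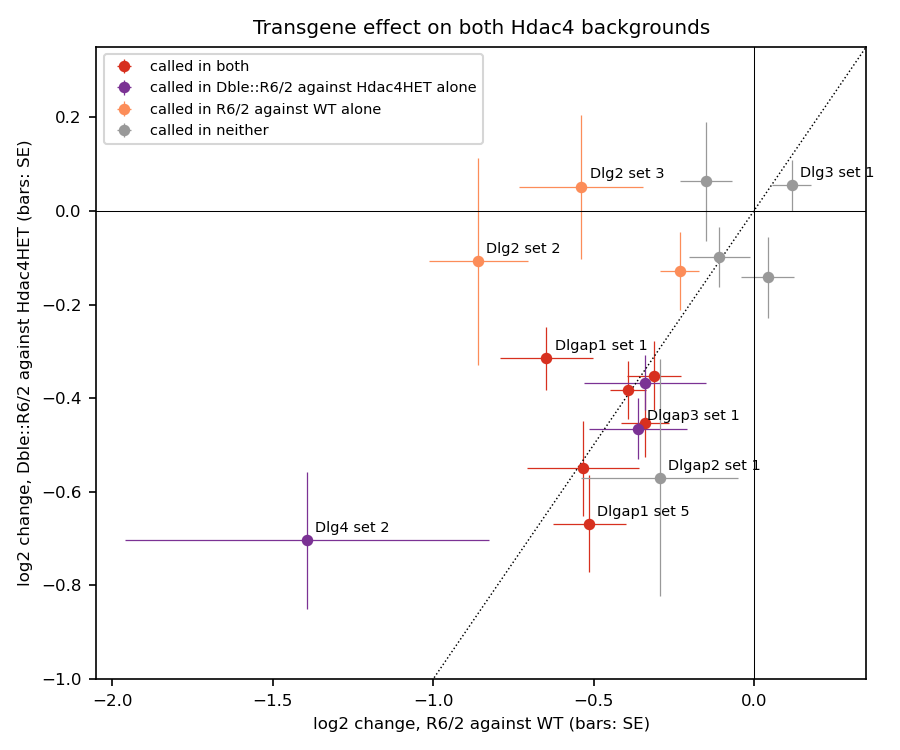
Log2 change of each of the 17 probe sets in R6/2 against WT mice (x axis) and in Dble::R6/2 against Hdac4HET mice (y axis), with SE bars and a dotted line of equal change. The 6 probe sets called in both lie between -0.31 and -0.67 on both axes, and Dlg2 sets 2 and 3 lie at -0.86 and -0.54 on the x axis and at -0.11 and 0.05 on the y axis.

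The allele by itself was examined in Hdac4HET against WT mice. Of the 17 probe sets 2 were called lower, Dlg2 set 2 and Dlgap1 set 6, and 0 higher, against 2.23% lower and 1.67% higher of all probe sets (3.91% either way). By gene, on the brightest probe set, 0 of 8 were called, against 1.71% lower and 1.46% higher of all genes. Dlg2 set 2 read 4.46, 5.05 and 5.54 (lowest, median and highest) in Hdac4HET mice, against 5.26, 5.61 and 6.46 in WT mice, a change of -0.71 ± 0.17 (SE, adjusted p = 0.0371). Of the 8 Hdac4HET arrays, 6 lay below every WT array. Dlgap1 set 6 read 5.65, 6.20 and 6.69 in Hdac4HET mice, against 6.34, 6.68 and 6.85 in WT mice. Its change was -0.47 ± 0.12 (adjusted p = 0.0379), again with 6 of 8 arrays below every WT array. Neither call was stable: both were lost when the 4 arrays high in Prl were left out (adjusted p = 0.21 for Dlg2 set 2 and 0.19 for Dlgap1 set 6), with changes of -0.60 and -0.49. The other members had changes between -0.53 (Dlg2 set 3) and 0.32 (Dlgap2). Dlgap1 sets 4 and 5 had means of 8.09 and 7.96 in Hdac4HET, against 7.82 and 7.69 in WT mice, without passing (0.27 each, adjusted p = 0.0814 and 0.148). Dlg4 set 2 (-0.33 ± 0.09, adjusted p = 0.057) also missed the threshold.

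Whether Hdac4 reduction altered these scaffolds in mice with the transgene was asked in Dble::R6/2 against R6/2 mice. No probe set of the 17 was called by limma, where 0.00666% of all probe sets were (0.00444% higher and 0.00222% lower), and none was called by the methods' t-test. At an unadjusted p under 0.05 there were 2, Dlgap1 set 6 (-0.26 ± 0.10, limma adjusted p = 0.839) and Dlgap1 set 4 (0.15 ± 0.06, limma adjusted p = 0.848). The share of all probe sets under that cut was not counted, so both are named as a description only. Dlgap1 set 4 read 7.56, 7.63 and 7.73 (lowest, median and highest) in Dble::R6/2 mice, against 7.22, 7.49 and 7.76 in R6/2 mice. The 95% intervals depended on R6/2 replicate 2. With all arrays the interval for Shank3 ran from -0.22 to 0.13, for Dlgap1 set 2 from -0.09 to 0.14, for Dlgap3 from -0.21 to 0.38, and for Dlg4 set 2 from -0.78 to 1.51. Without that array they ran from -0.25 to 0.03 for Shank3 (change -0.11), from -0.11 to 0.12 for Dlgap1 set 2 (0.00), from -0.19 to 0.07 for Dlgap3 (-0.06 ± 0.06, against 0.08 ± 0.14 with it) and from -0.53 to 0.07 for Dlg4 set 2 (-0.23 ± 0.14, against 0.36 ± 0.55 with it). Leaving it out turned the sign of 6 of the 17 changes, Dlgap3 and Dlg4 set 2 among them, and 0 of 17 were called in either case.

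**Figure D4:**
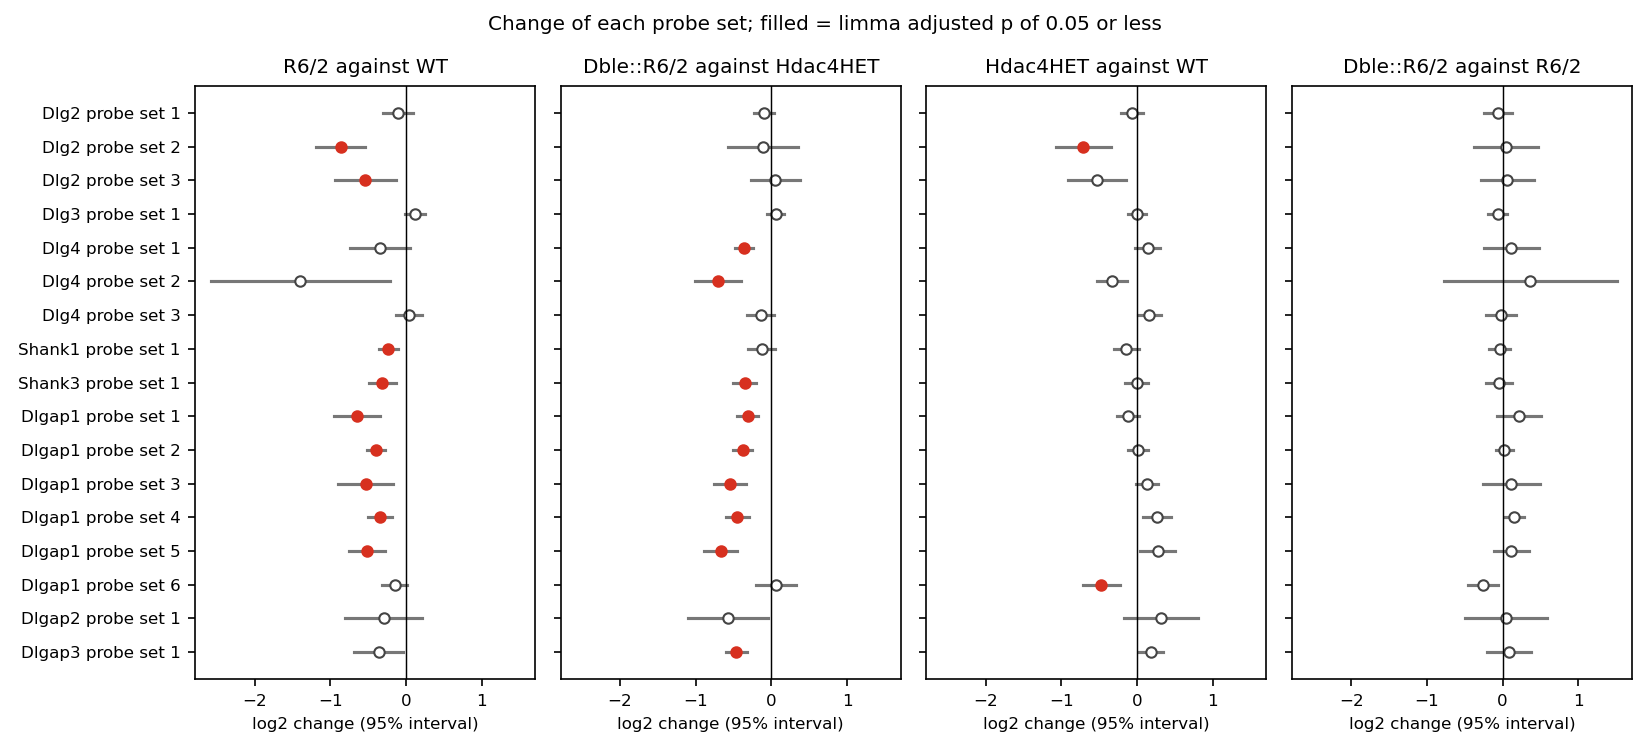
Log2 change (x axis) with its 95% interval for each of the 17 probe sets in R6/2 against WT, Dble::R6/2 against Hdac4HET, Hdac4HET against WT and Dble::R6/2 against R6/2 mice. Filled points were called (9, 9, 2 and 0), and all called points lie below 0.

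Probe sets of one gene can read different transcript ends, so a fall in one and not in another needs a test of their difference. Where these probe sets lie within their transcripts could not be placed here, so a difference between them is not assigned to transcript ends. For each of the 21 pairs of probe sets of one member gene, the log2 difference between brighter and dimmer was compared between genotypes. It was tested with limma among all 30372 such pairs on the array and singly with a 2-sided exact permutation test over 24310 assignments of arrays. In R6/2 against WT mice 2 of the 21 pairs were called by limma, a smaller share than the 28.6% of all pairs. Dlg2 set 1 minus set 2 was 0.75 ± 0.17 wider in R6/2 mice (SE, adjusted p = 0.004, unadjusted exact p = 8.2e-05). Here set 2 was dimmer than the array's median. Without the 4 arrays high in Prl, set 1 changed by -0.16 and set 2 by -0.68. In Hdac4HET against WT mice, with all arrays, they changed by -0.06 and -0.71, so such a gap was not particular to R6/2 mice. Dlgap1 set 1 minus set 6 was narrower by 0.50 in R6/2 mice (-0.50 ± 0.18, adjusted p = 0.0451, unadjusted exact p = 6.6e-04), and by 0.33 without R6/2 replicate 2 (-0.33 ± 0.09, adjusted p = 0.00755). Dlg4 set 1 minus set 2 changed by 1.05 ± 0.41 (adjusted p = 0.0615). Without R6/2 replicate 2 that change was 0.64 ± 0.12 (adjusted p = 9.4e-04). Dlg4 set 2 minus set 3 changed by -1.44 ± 0.54 (adjusted p = 0.0546), or -0.88 ± 0.11 without that array (adjusted p = 2.4e-05), so that 4 pairs were then called, against 28.9% of all pairs.

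In Dble::R6/2 against Hdac4HET mice 5 of the 21 pairs were called, where 11.7% of all pairs were. Of these, 4 set Dlgap1 sets 1, 2, 3 and 5 against set 6. Set 5 minus set 6 changed most, by -0.73 ± 0.19 (adjusted p = 0.013, unadjusted exact p = 0.00222). The remaining pair was Dlg4 set 2 minus set 3, at -0.56 ± 0.17 (adjusted p = 0.04, unadjusted exact p = 0.00905). Dlg2 set 1 minus set 2, called in R6/2 against WT mice, changed by 0.01 here and was not called.

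**Figure D5:**
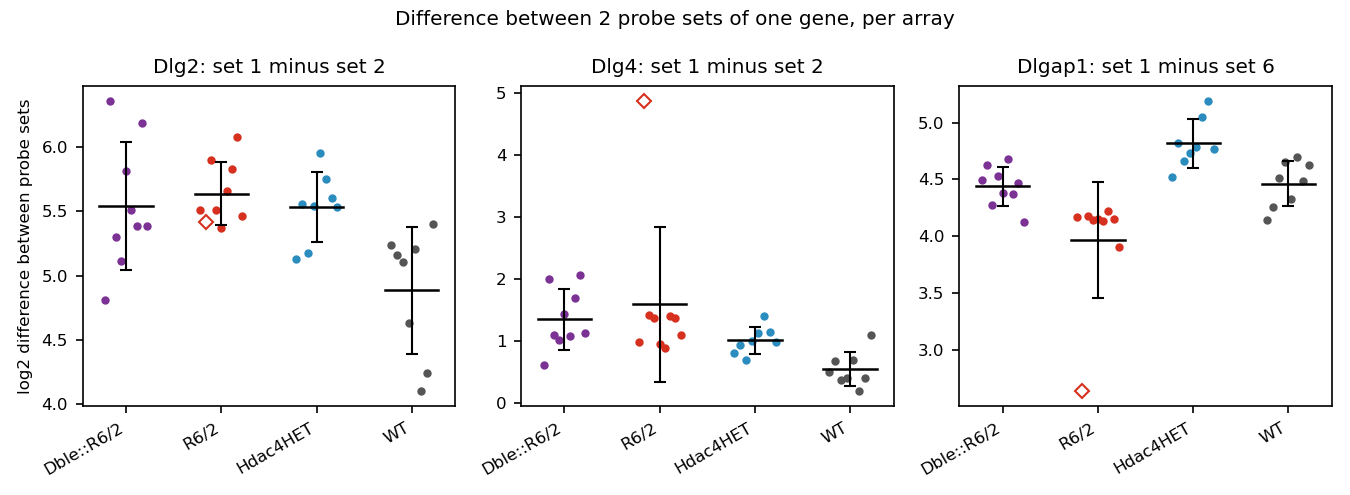
Log2 difference between 2 probe sets of one gene (y axis) on every array of Dble::R6/2, R6/2, Hdac4HET and WT mice, for Dlg2 sets 1 and 2, Dlg4 sets 1 and 2, and Dlgap1 sets 1 and 6, with the mean ± SD in black. R6/2 replicate 2, the open diamond, stands apart for Dlg4 and Dlgap1, and the Dlg2 difference is wider in R6/2 than in WT mice by 0.75.

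Partners of these scaffolds were read from lists written by function, with earlier results of these data known, on the brightest probe set of each gene. Their counts stand against 11.8% of all genes called lower and 20.2% higher in R6/2 against WT mice, and 11.7% lower and 18.3% higher in Dble::R6/2 against Hdac4HET mice. Of 42 measured other excitatory scaffolds and adaptors, 17 were called lower and 5 higher in R6/2 against WT mice, with a median change of -0.14, against 0.02 over all genes. In Dble::R6/2 against Hdac4HET mice 19 were called lower and 3 higher. The 4 with the largest changes in R6/2 mice were Sorbs2, an actin adaptor (-1.05), Kalrn, a guanine exchange factor of dendritic spines (-0.92), Cnksr2, a Ras-pathway scaffold (-0.74), and Akap5, which anchors protein kinase A (-0.74). Kalrn averaged 11.64 in R6/2 against 12.56 in WT mice, and 11.66 in Dble::R6/2 against 12.52 in Hdac4HET mice. In Hdac4HET against WT mice 2 of the 42 were called lower and 2 higher, beside 1.71% lower and 1.46% higher of all genes. Sorbs2 was among those called lower there (-0.38, limma adjusted p = 0.0191). Of 21 measured glutamate receptor subunits and auxiliary subunits, 7 were called lower and 0 higher in R6/2 against WT mice, and 9 lower and 0 higher in Dble::R6/2 against Hdac4HET mice. Cacng3, an auxiliary subunit of AMPA receptors that binds Dlg proteins, averaged 7.03 in R6/2 and 8.50 in WT mice (-1.47 ± 0.28, SE, adjusted p = 5.4e-04). The receptor subunits Gria3, Grin2a and Grin2c changed by -0.65, -0.46 and -0.42. Grin2a was dimmer than the array's median, at means of 3.91 in R6/2 and 4.37 in WT mice. In Dble::R6/2 against Hdac4HET mice Gria3 and Grin2c were called lower and Grin2a was not (-0.24, limma adjusted p = 0.127).

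Of 41 measured synaptic adhesion proteins, 10 were called lower and 6 higher in R6/2 against WT mice, beside 11.8% lower and 20.2% higher of all genes. In Dble::R6/2 against Hdac4HET mice 12 were called lower and 6 higher, beside 11.7% and 18.3%. Slitrk1 (-0.73), Il1rapl1 (-0.58), Lrrc4 (-0.51) and Ntng2 (-0.50) had the largest changes in R6/2 against WT mice. In Hdac4HET against WT mice 2 of the 41 were called lower and 3 higher, beside 1.71% lower and 1.46% higher of all genes. Slitrk1 was among those called lower there (-0.29, limma adjusted p = 0.0325). Of 6 measured inhibitory postsynaptic proteins, 1 was called lower and 1 higher in R6/2 against WT mice, and 0 lower and 1 higher in Dble::R6/2 against Hdac4HET mice, numbers too small to set against the shares of all genes. Gephyrin (Gphn) changed by -0.19 ± 0.05 in R6/2 against WT mice (adjusted p = 0.0143) and by -0.27 in Hdac4HET against WT mice (adjusted p = 0.038), and was not called in Dble::R6/2 against Hdac4HET mice (-0.13, adjusted p = 0.456). Nlgn2, the neuroligin of inhibitory synapses, was higher in R6/2 against WT mice (0.26 ± 0.06, adjusted p = 0.0023) and in Dble::R6/2 against Hdac4HET mice (0.18, adjusted p = 0.018). In Dble::R6/2 against R6/2 mice 0 genes of these 4 lists were called, where 0 of all 18193 genes were called on the brightest probe set.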

How the data were processed

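Cortex RNA of individual mice was hybridised by the authors to Affymetrix mouse arrays that read mainly transcript 3′ ends, and they dropped arrays of poor quality. What they deposited is a log2 level for each probe set and array. How background was corrected and signals were normalized and summarised was not given in the sources used here. Names matched all 34 columns to samples.

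Genotypes, taken from the labels, were compared in pairs by limma (version 3.58.1, R 4.3.3) without covariates, with Benjamini-Hochberg adjustment over all 45037 probe sets and a threshold of 0.05. Dim probe sets were kept. The interaction used all 34 arrays. Probe set differences were tested by exact permutation; limma over all 30372 pairs was added after the data had been seen, and it gives the adjusted p printed. Named genes were all members, up to 4 called genes of each list with the largest change in R6/2 against WT mice, and the 5 genes most like Dlgap1 set 2. The members and the lists were chosen with earlier results of these data known. Fits were tested on simulated data. Alternatives covered normalization, dim probe sets, variance model, array weights, sex, replicate block, the methods' t-test and arrays left out. Figures were drawn with matplotlib 3.10.9. The number of arrays limits the precision.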

Additional observations from a re-analysis of the deposited data

Results flagged for a closer look

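In 68 sets of readings, 1 for each probe set and genotype, 21 readings stood apart from the rest of their genotype by Dixon's criterion. Chance meets it in about 1 set in 20 where sets are independent, but these sets reuse the same 34 arrays, so that share is no measure here. R6/2 replicate 2 accounted for 8 of the 21. It was lowest of the R6/2 arrays on Dlg2 set 1 (9.96, next 10.50), Dlg4 set 1 (9.12, next 10.51), Dlg4 set 2 (4.23, next 9.46), Shank3 (8.54, next 9.02), Dlgap1 set 1 (9.37, next 10.42), Dlgap1 set 3 (9.04, next 10.002) and Dlgap3 (8.01, next 9.09). It was highest on Dlg3 (10.09, next 9.84). The same array carried the epidermal transcripts described above, and their part in these values was not tested.

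The other 13 were spread over the remaining genotypes. Among Dble::R6/2 mice replicate 2 was lowest on Dlg2 set 1 (10.16), replicate 9 lowest on Dlg4 set 3 (5.19), replicate 1 highest on Shank3 (9.33) and replicate 6 lowest on Dlgap1 set 5 (6.85). Among Hdac4HET mice replicate 6 was lowest on Dlg4 set 2 (9.66), replicate 8 highest on Shank1 (5.70) and replicate 4 lowest on Dlgap1 set 3 (10.68) and on Dlgap1 set 5 (7.41). Among WT mice replicate 6 was lowest on Dlg2 set 1 (10.28) and on Dlg4 set 1 (10.48), replicate 8 lowest on Dlg4 set 2 (9.90), replicate 5 lowest on Dlgap1 set 2 (10.70) and replicate 3 lowest on Dlgap1 set 5 (7.20). After R6/2 replicate 2, the arrays farthest from their genotype over all probe sets were WT replicate 3, Dble::R6/2 replicate 6, Hdac4HET replicate 4 and Dble::R6/2 replicate 2, all named here, with 1.38%, 1.02%, 0.881% and 0.875% of probe sets at least 1 log2 unit away.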

How the results depend on the processing

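The 9 members called lower in R6/2 against WT mice became 6 to 11 under the other settings, and 7 to 10 when 1 array was left out. The lowest count, 6, came with the dimmer probe sets removed, which left out Dlg2 sets 2 and 3 and Shank1. In Dble::R6/2 against Hdac4HET mice the 9 became 7 to 9, and 9 to 10 when 1 array was left out. The 0 calls in Dble::R6/2 against R6/2 mice and in the interaction stayed 0 under all settings run. In Hdac4HET against WT mice the 2 calls became 4 with sex from the labels, 1 with all 4 genotypes in a single fit, and 0 with sex read from Xist, with the replicate block, with the methods' t-test and without the 4 arrays high in Prl. Leaving out 1 array gave 0 to 5. There 0 genes were called on the brightest probe set and 1, Dlg2, on the mean of its probe sets. The call of Dlg2 set 2 was lost on leaving out any of 11 of the 16 arrays and that of Dlgap1 set 6 any of 12, and in R6/2 against WT mice that of Dlg2 set 3 any of 11 of 17. The cause of these shifts was not tested. Same-numbered arrays deviated together at correlations from -0.35 to 0.39, so the numbers were not taken as pairs, and apart from Hdac4HET against WT mice the replicate block changed no count of members.

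By exact permutation with adjustment over the 21 pairs of probe sets, 4 pairs passed in R6/2 against WT mice (2 without the arrays high in Prl, 4 to 6 with 1 array left out) and 6 in Dble::R6/2 against Hdac4HET mice (4 to 10 with 1 array left out, 10 without Hdac4HET replicate 4). That test was not run on all 30372 pairs, so these counts have no share to stand against. By limma over all pairs the counts were 2 and 5 of 21, beside 28.6% and 11.7% of all pairs. Dlgap1 set 3 in R6/2 against WT mice missed the threshold with the methods' t-test (adjusted p = 0.0523), without the arrays high in Prl (0.112) and without R6/2 replicate 8 (0.0508). The dim probe sets Dlg2 2 and 3 and Shank1 lie below the array's median, where small changes are hardest to measure.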

Other observations

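Over all 34 arrays, after each genotype's mean was subtracted, the genes whose brightest probe set varied most like Dlgap1 set 2 were Bicral (Pearson r = 0.78), Cpeb4 (0.75), Ube2e1 (0.74), Ndrg4 (0.72) and Usp25 (0.71), out of 18192 genes compared. Without R6/2 replicate 2 the values were 0.75, 0.80, 0.72, 0.69 and 0.67. How the arrays were normalized was not given in the sources used here, and the values are a description of these arrays. Of the 5, Cpeb4, which encodes a cytoplasmic polyadenylation factor, was called lower in R6/2 against WT mice (-0.25, limma adjusted p = 0.00392), and Bicral, Ube2e1, Ndrg4 and Usp25 had changes between -0.06 and 0.10 that did not pass.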
